A study of Mus musculus with 10 samples.

Results

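The exocrine pancreas genes described here are 31 mouse genes picked by name: 13 proteases, 5 lipases and the lipase cofactor colipase, the ribonuclease Rnase1, 6 Reg and zymogen granule proteins, 3 acinar transcription factors, the endoplasmic reticulum protein Erp27 and the tissue kallikrein Klk1. All 31 were found among the 32830 genes of the deposited table. They were followed across 10 tumour libraries, in which they took 11.39% of the reads of the richest library (95% Clopper-Pearson interval 11.38% to 11.40%) and 0.00641% of the reads of the poorest (0.00615% to 0.00668%).

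Acinar cells of the pancreas make digestive enzymes, mostly as inactive precursors called zymogens, pack them into granules and release them into the duct, from where they reach the gut. The genes for these enzymes are switched on together by a small set of transcription factors. PTF1, a complex that holds Ptf1a and its partner Rbpjl, binds a paired DNA site made of an E-box and a TC-box, and Bhlha15 (also known as Mist1) organises the secretory machinery. In bulk tissue these genes mark acinar cells, and fewer such cells in a sample cannot be told apart from less RNA per cell.

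RNA came from tumour tissue of a mouse ovarian cancer model, labelled WT in genotype for every sample. The groups were the combination of CDK4/6i and PD-1 antibody (3 libraries), PD-1 antibody alone (2), CDK4/6i alone (3) and PBS (2). CDK4/6i is an inhibitor of the cell cycle kinases CDK4 and CDK6, titled Abmea in the labels; PD-1 antibody blocks a checkpoint receptor of T cells, and PBS is buffered saline without either agent. The treatment text of combination replicates 2 and 3 reads PD2 and PD3 antibody, so the combination was taken from the sample titles, and the sources used here do not give mouse strain, age, doses, the tumour cells or the site of the tumour.

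Values are RPKM, which divide the reads on a gene by its length and by the size of the library, and the libraries held 25132208 to 36260856 reads. Nothing in the labels ties the replicates to separate animals, so p-values measure only the spread between these libraries. Genes that ovarian tumours and mesothelium express were present throughout, with Wt1 between 33.1 and 53.3 RPKM and Krt19 between 127.6 and 207.0 RPKM over the 10 libraries. Reads on 12 skeletal muscle genes made up 10.26% of combination replicate 1, 10.41% and 9.24% of CDK4/6i replicates 1 and 2, and at most 1.59% of any other library.

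The 31 genes were abundant in 5 of the 10 libraries. In the combination they took 0.00695%, 0.458% and 1.71% of the reads of replicates 1, 2 and 3, and under PD-1 antibody 11.39% and 4.59% of replicates 1 and 2. In CDK4/6i they took 0.00836%, 0.00875% and 0.178% of replicates 1, 2 and 3, and in PBS 0.00818% and 0.00641%. Both antibody libraries, combination replicates 2 and 3 and CDK4/6i replicate 3 therefore carried pancreas RNA, and neither PBS library did beyond a low level. The low level was itself mostly Cela1: without it, the 5 abundant libraries held at least 39835 reads on the other 30 genes and the remaining 5 libraries held 712 to 909. Of the 31 genes, 29 were higher in each of the 5 abundant libraries than in each of the other 5, beside 3.07% of all genes tested, but these libraries were set apart by the same genes, so the count is a description. The exceptions were Ptf1a and Bhlha15.

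**Figure D1:**
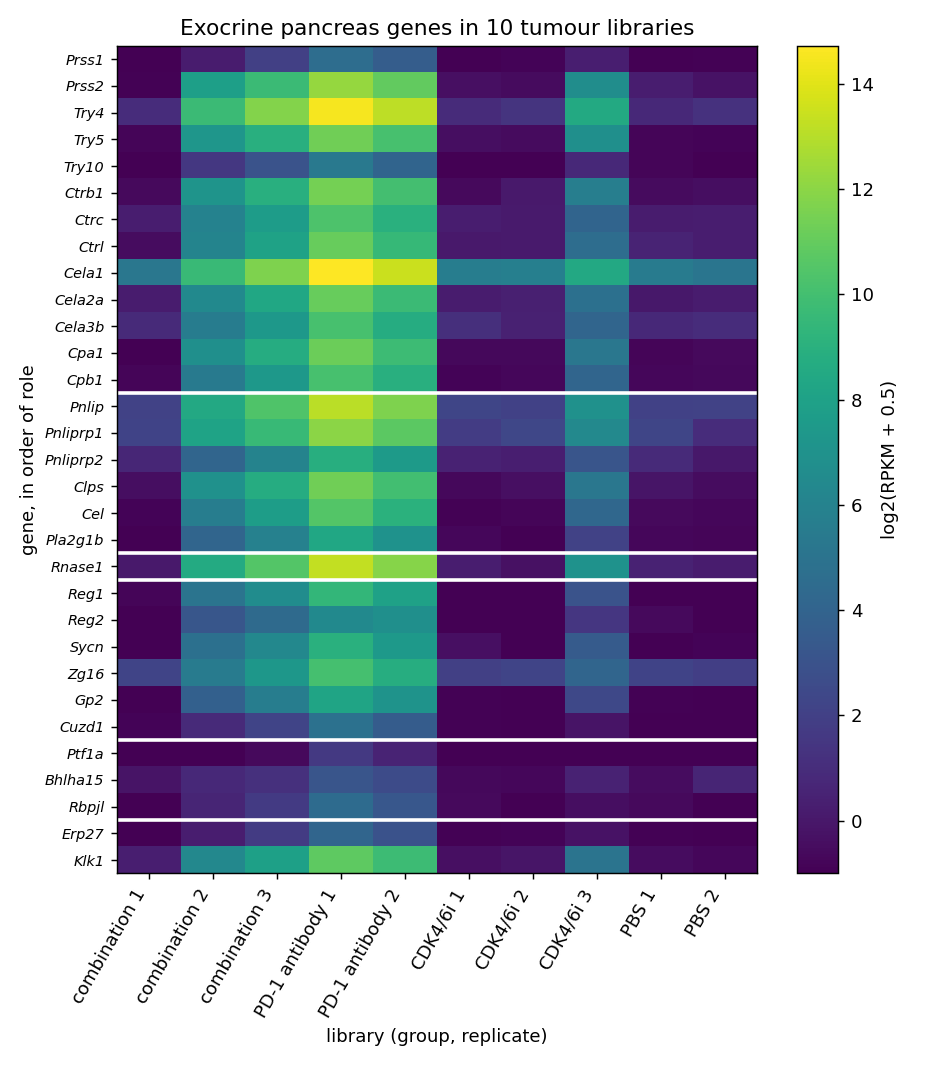
Level of each of the 31 genes, as log2(RPKM + 0.5) by colour, in the 10 libraries (columns, by group and replicate), with genes ordered by role and white lines between roles. Combination 2 and 3, both PD-1 antibody libraries and CDK4/6i 3 are bright over almost all genes, and in the other 5 libraries Cela1 stands out.

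Proteases made up most of the pancreas signal. Cela1, a pancreatic elastase (GRCm38 chr15:100674425-100687920, minus strand), was the highest member in both antibody libraries and in the 5 poorer libraries, with 37.2, 811.9 and 3291 RPKM in the combination, 26932 and 11411 RPKM under PD-1 antibody, 50.8, 53.7 and 357.8 RPKM in CDK4/6i, and 46.4 and 34.4 RPKM in PBS. Try4, a trypsinogen (chr6:41302269-41305532, plus strand), had 1.52, 833.2 and 3598 RPKM in the combination, 22774 and 9055 RPKM under PD-1 antibody, 1.39, 2.03 and 370.8 RPKM in CDK4/6i, and 1.29 and 1.91 RPKM in PBS. Both genes were high in the same 5 libraries, and Try4 was the higher of them in combination replicates 2 and 3 and CDK4/6i replicate 3, but Cela1 had a level in the other 5 that Try4 lacked. Prss2, an anionic trypsinogen, had the same order as Try4 among the 5 abundant libraries but not among the other 5, with 0.041, 230.4 and 834.3 RPKM in the combination, 4791 and 1963 RPKM under PD-1 antibody, 0.272, 0.195 and 101.9 RPKM in CDK4/6i, and 0.684 and 0.354 RPKM in PBS. The chymotrypsinogens Ctrb1, Ctrc and Ctrl, which cut after large hydrophobic residues, had 2791, 1293 and 2113 RPKM in antibody replicate 1 and stayed under 1 RPKM in the 5 poorer libraries. The carboxypeptidases Cpa1 and Cpb1, which trim the ends of peptides, had 2373 and 1146 RPKM in antibody replicate 1, and the elastases Cela2a and Cela3b 2158 and 1121 RPKM.

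Not every protease value can be assigned to 1 gene. Of the 50-base stretches of its GENCODE M21 transcripts, Try4 shared 65.6% with another gene, Prss1 54.9%, Try5 53.9% and Try10 40.8%, all with other trypsinogens. Prss2 shared 7.83%, Cela3b 33.2% with Cela3a, Cela2a 25.6% with Ctrc, and Klk1 28.4%, while Cela1, Ctrb1, Cpa1 and all lipases shared 0%. The level of Prss1, 24.5 and 12.0 RPKM under PD-1 antibody, and that of Try10, 40.8 and 16.5 RPKM, are uncertain for this reason. Cela2a (chr4:141814962-141826160) and Ctrc (chr4:141814962-141846359) also overlap in their exons, both on the minus strand, so strand cannot separate their reads. Both overlap Casp9 as well, and their separate levels are uncertain. How the counting treated reads that fit several genes is not given in the sources used here.

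The promoters of the members were searched for the letters of the PTF1 site, because these genes moved together and PTF1 is their known acinar activator. RefSeq (GRCm38.p6) gave a window from 250 bases before to 50 bases after the start for 25 of the 31 genes. On either strand, 14 of the 25 windows (56.0%) held the E-box CACCTG, beside 20.2% of all 32851 windows, 5 of the 25 held CAGCTG, beside 16.3%, and 8 (32.0%) held the TC-box TTTCCC, beside 25.2%. An E-box together with a TC-box was present in 7 (28.0%), beside 8.16% of all windows. The windows shown hold both boxes at a fixed distance or neither box: Cela1 (chr15:100687871-100688170, minus strand), Ctrb1 (chr8:111690961-111691260, minus strand), Prss1 (chr6:41458680-41458979, plus strand) and Pnlip (chr19:58670115-58670414, plus strand). Capitals mark every E-box and TC-box in either orientation.
Cela1: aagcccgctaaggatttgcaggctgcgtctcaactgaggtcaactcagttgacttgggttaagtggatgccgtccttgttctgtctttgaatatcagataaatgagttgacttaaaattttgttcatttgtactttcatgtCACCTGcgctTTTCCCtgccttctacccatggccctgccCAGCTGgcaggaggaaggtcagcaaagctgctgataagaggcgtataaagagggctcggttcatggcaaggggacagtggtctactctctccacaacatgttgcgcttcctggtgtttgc
Ctrb1: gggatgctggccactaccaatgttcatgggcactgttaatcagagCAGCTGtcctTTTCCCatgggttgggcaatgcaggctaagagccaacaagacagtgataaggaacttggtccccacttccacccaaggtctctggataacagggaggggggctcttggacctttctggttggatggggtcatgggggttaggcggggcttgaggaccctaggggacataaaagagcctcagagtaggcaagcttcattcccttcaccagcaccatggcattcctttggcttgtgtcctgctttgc
Prss1: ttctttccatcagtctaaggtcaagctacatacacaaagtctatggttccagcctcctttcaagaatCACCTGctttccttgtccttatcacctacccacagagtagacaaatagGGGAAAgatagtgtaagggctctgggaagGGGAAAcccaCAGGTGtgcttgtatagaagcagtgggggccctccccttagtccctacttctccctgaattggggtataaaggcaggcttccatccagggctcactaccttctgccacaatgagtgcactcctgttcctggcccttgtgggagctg
Pnlip: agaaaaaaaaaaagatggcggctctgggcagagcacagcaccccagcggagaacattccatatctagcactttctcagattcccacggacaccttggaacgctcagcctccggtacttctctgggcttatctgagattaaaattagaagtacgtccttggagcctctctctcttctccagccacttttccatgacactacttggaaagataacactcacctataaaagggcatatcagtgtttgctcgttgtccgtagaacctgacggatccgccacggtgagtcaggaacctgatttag
In Cela1 and Ctrb1 the TC-box starts 10 bases after the start of an E-box, and Prss1 holds the same arrangement on the opposite strand. This spacing was noticed in these windows and then counted: 3 of the 25 member windows held it (12.0%), and 9 of all 32851 (0.0274%). The 9 genes were Cela1, Ctrb1, Prss1, the trypsinogen-like Gm5771, and 5 genes outside the acinar lists, Pacc1, Npnt, Tnfrsf9, Gm44507 and Esp18. Prss1 and Gm5771 are near copies and so are not independent cases. Pnlip, among the most abundant members, held none of these letters in its window, as did Pnliprp1, Rnase1, Sycn, Gp2, Pla2g1b and Ptf1a. The matches are letters in a window and say nothing of binding in these tumours.

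The lipases moved with the proteases. Pnlip, pancreatic triglyceride lipase (chr19:58670365-58681786, plus strand), had 3.78, 362.3 and 1358 RPKM in the combination, 8580 and 3335 RPKM under PD-1 antibody, 4.36, 3.61 and 121.3 RPKM in CDK4/6i, and 3.59 and 3.79 RPKM in PBS. Clps, colipase, which anchors that lipase at the fat droplet, had 125.5 and 429.4 RPKM in combination replicates 2 and 3, 2509 and 996.3 RPKM under PD-1 antibody and 37.4 RPKM in CDK4/6i replicate 3, and at most 0.434 RPKM in the other 5 libraries. Cel, carboxyl ester lipase, and Pla2g1b, the secreted pancreatic phospholipase, reached 1460 and 335.6 RPKM in antibody replicate 1 and at most 0.151 and 0.112 RPKM in those 5. The lipase-related Pnliprp1 and Pnliprp2 reached 4073 and 469.3 RPKM in antibody replicate 1, and in the 5 poorer libraries they kept medians of 3.95 and 0.921 RPKM.

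Rnase1, the secreted pancreatic ribonuclease (chr14:51145002-51146767, minus strand), had 0.558, 391.9 and 1472 RPKM in the combination, 9846 and 3754 RPKM under PD-1 antibody, 0.687, 0.327 and 127.8 RPKM in CDK4/6i, and 0.902 and 0.654 RPKM in PBS. It was the third most abundant member of antibody replicate 1. Klk1, a kallikrein of pancreas, kidney and salivary gland, had 1797 and 866.1 RPKM under PD-1 antibody and at most 0.753 RPKM in the 5 poorer libraries.

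The Reg proteins are secreted lectin-like proteins that acinar cells raise strongly when the pancreas is injured or inflamed, and they did not all follow the enzymes. Reg1 had 0.075, 32.0 and 97.6 RPKM in the combination, 682.4 and 254.2 RPKM under PD-1 antibody, 0, 0 and 7.61 RPKM in CDK4/6i, and 0 RPKM in both PBS libraries. Reg2 had 0, 8.87 and 20.7 RPKM in the combination, 87.6 and 111.2 RPKM under PD-1 antibody, 0, 0 and 2.26 RPKM in CDK4/6i, and 0.167 and 0 RPKM in PBS. Reg2 was thus the only member higher in antibody replicate 2 than in antibody replicate 1. The granule proteins Sycn, Gp2 and Cuzd1 reached 509.6, 295 and 28.1 RPKM in antibody replicate 1 and at most 0.266 RPKM in the 5 poorer libraries. Zg16, a lectin of the granule membrane, reached 1082 RPKM there and stayed between 3.35 and 4.22 RPKM in the poorer libraries.

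Among the roles, the 3 transcription factors together held the smallest share of the member RPKM in each of the 5 abundant libraries. Single members of other roles could be lower, such as Erp27 with 17.0 and 7.39 RPKM under PD-1 antibody, below Rbpjl. Rbpjl, the pancreas form of the PTF1 partner (chr2:164403141-164415448, plus strand), had 0.012, 1.06 and 2.69 RPKM in the combination, 22.4 and 9.26 RPKM under PD-1 antibody, 0.161, 0.021 and 0.242 RPKM in CDK4/6i, and 0.167 and 0.020 RPKM in PBS. Ptf1a was read in 3 libraries, at 0.146 RPKM in combination replicate 3 and at 2.50 and 1.01 RPKM in the antibody libraries, and was at 0 reads in the other 7. Bhlha15, which plasma cells also express, had 0.387, 1.25 and 1.81 RPKM in the combination, 8.26 and 5.57 RPKM under PD-1 antibody, 0.127, 0.114 and 0.935 RPKM in CDK4/6i, and 0.205 and 1.05 RPKM in PBS. All 3 were highest in the antibody libraries, and PBS replicate 2 lay above CDK4/6i replicate 3 in Bhlha15. Rbpjl lies partly over Matn4 and Ptf1a over Ptf1aos, so reads of these pairs may not be fully separated. Whether counting used the strand is not given in the sources used here.

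Among the 5 abundant libraries the mixture of members varied much less than its amount. Each member's RPKM was divided by its RPKM in antibody replicate 1. The median over the 31 members was 4.65% in combination replicate 2, 15.7% in combination replicate 3, 40.4% in antibody replicate 2 and 1.58% in CDK4/6i replicate 3, which lies 63.5-fold below antibody replicate 1. In antibody replicate 2, 29 of the 31 members lay within 1.25-fold of that median. In combination replicates 2 and 3, 19 and 26 members did so, and 26 and 29 lay within 1.5-fold. In CDK4/6i replicate 3, 15 lay within 1.25-fold and 25 within 1.5-fold. The members thus differed by orders of magnitude between libraries and by little against each other.

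**Figure D2:**
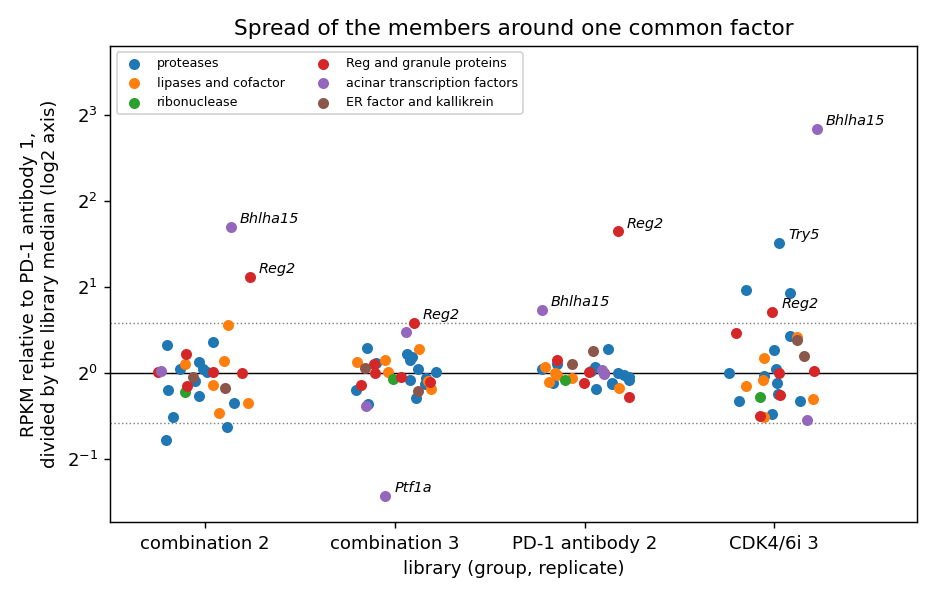
RPKM of each member relative to PD-1 antibody 1, divided by the median of the library (log2 axis), in the other 4 libraries with abundant pancreas RNA; each point is a gene, coloured by role, the line is the median and the dotted lines are 1.5-fold from it. Most points lie between the dotted lines; Reg2 and Bhlha15 lie above them most often, and Ptf1a, at 0 in combination 2 and CDK4/6i 3, is not drawn there.

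Departures beyond 1.5-fold were few, although many smaller ones exceeded counting error. The 95% interval lay above the median ratio for 8 members and below it for 13 in combination replicate 2, for 13 and 13 in combination replicate 3, for 10 and 14 in antibody replicate 2, and for 12 and 11 in CDK4/6i replicate 3. Reg2 lay 2.18 times above the median ratio in combination replicate 2 (95% interval 1.92 to 2.46), 1.503 times in combination replicate 3 (1.38 to 1.63), 3.14 times in antibody replicate 2 (2.98 to 3.30) and 1.64 times in CDK4/6i replicate 3 (1.25 to 2.11). Bhlha15 lay 3.26 times above it in combination replicate 2 (2.72 to 3.88), 1.39 times in combination replicate 3 (1.20 to 1.61), 1.67 times in antibody replicate 2 (1.51 to 1.84) and 7.18 times in CDK4/6i replicate 3 (5.74 to 8.89). For Bhlha15 the excess was largest where the pancreas share was lowest, and the gene had a level of 0.114 to 1.05 RPKM without that share. The ratios of a gene all share antibody replicate 1 as denominator, so they are not independent departures. Reg2 made up 0.086% of the member RPKM there, beside 0.219% and 0.135% in combination replicates 2 and 3, 0.270% in antibody replicate 2 and 0.140% in CDK4/6i replicate 3. Bhlha15 made up 0.00811% there, beside 0.0309%, 0.0118%, 0.0135% and 0.0577% in the same order. Try5, a trypsinogen that shares sequence with its neighbours, lay 2.86 times above the median in CDK4/6i replicate 3 (2.76 to 2.97) and 1.08 times in antibody replicate 2 (1.06 to 1.09). In CDK4/6i replicate 3 Prss1 also lay 1.90 times (1.10 to 3.07) and Try10 1.95 times (1.32 to 2.78) above it. Below the median by more than 1.5-fold were Prss1 at 0.583 of it (0.343 to 0.930) and Cela1 at 0.648 (0.641 to 0.656) in combination replicate 2. Ptf1a lay at 0.372 (0.157 to 0.757) in combination replicate 3 and at 0 reads (0 to 0.635) in combination replicate 2. In CDK4/6i replicate 3 Ptf1a was also at 0 reads, but its interval (0 to 2.19) included the median ratio, so no departure can be read there. The intervals reflect counting error alone.

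By role, proteases held 64.1% and 67.1% of the summed member RPKM in combination replicates 2 and 3, 68.8% and 69.2% under PD-1 antibody and 70.4% in CDK4/6i replicate 3. Lipases and colipase held 21.0% and 19.0% in those combination libraries, 17.1% and 16.8% under PD-1 antibody and 17.0% in CDK4/6i replicate 3. Rnase1 held 9.67%, 9.63%, 9.66%, 9.13% and 7.90% in the same order of libraries, and the Reg and granule proteins between 2.63% and 3.18%. The 3 transcription factors together held at most 0.07%. The 2 combination libraries had the smallest protease and largest lipase shares, a difference of a few percentage points between single libraries that was not tested. Left without Cela1, the protease share was 55.1% and 58.1% in those combination libraries, 57.6% and 57.4% under PD-1 antibody and 62.0% in CDK4/6i replicate 3, so combination replicate 3 no longer lay below the antibody libraries. Cela1 alone was 20.03% and 21.5% of the member RPKM in those combination libraries, 26.4% and 27.7% under PD-1 antibody, and 22.1% in CDK4/6i replicate 3.

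In the 5 poorer libraries the members were not a diluted copy of this mixture. Cela1 made up 65.1% of the member RPKM in combination replicate 1, 72.4% in each of CDK4/6i replicates 1 and 2, and 68.2% and 65.8% in PBS. Over these 5 libraries Cela1 had a median of 46.4 RPKM (34.4 to 53.7), and antibody replicate 1 lay 581-fold above that median. For Zg16 the same comparison gave 274-fold, for Pnliprp2 510-fold and for Pnliprp1 1032-fold, but for Try4 14992-fold, for Rnase1 15054-fold and for Prss2 17589-fold. Only 6 members had a median over 1 RPKM in these libraries, namely Cela1, Zg16, Pnliprp1, Pnlip, Try4 and Cela3b, and 25 did not. Ptf1a had 0 reads in all 5, and 2 reads each were found on Prss1, Try10 and Reg1. Levels of Cela1, Zg16, Pnlip and Pnliprp1 of this size were therefore present in libraries in which Prss2, Cpa1 and Cel were near 0.

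**Figure D3:**
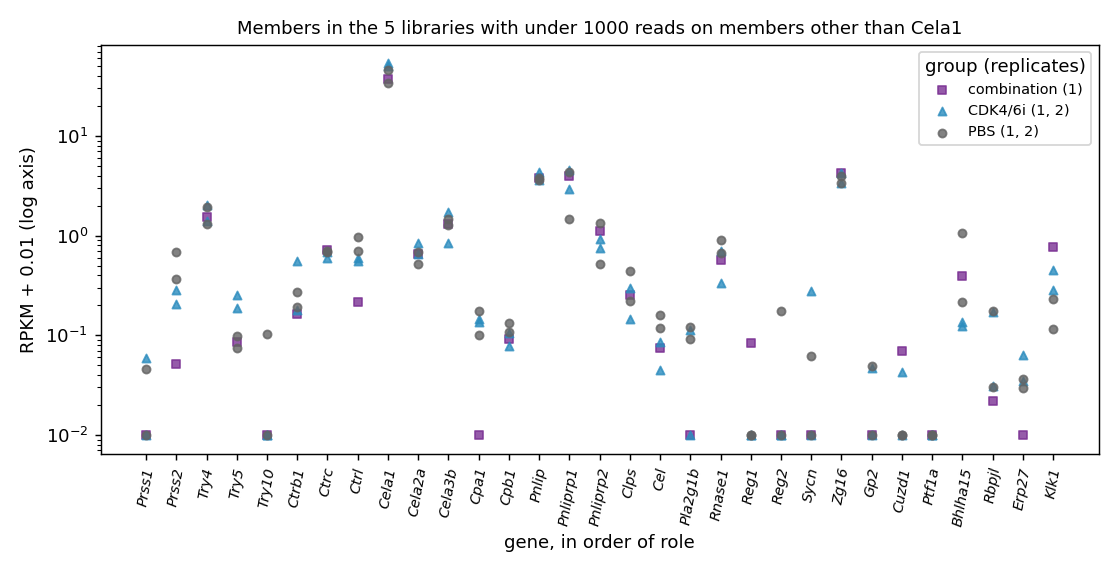
RPKM + 0.01 (log axis) of each of the 31 members in the 5 libraries with under 1000 reads on members other than Cela1: combination 1, CDK4/6i 1 and 2, and PBS 1 and 2. Each point is a library; Cela1 lies between 34.4 and 53.7 RPKM, and most other members lie below 1 RPKM.

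PD-1 antibody against PBS gave the largest differences. All 31 members were higher in both antibody libraries than in both PBS libraries, beside 8.78% of all genes tested, and all 31 were higher in both antibody libraries than in each of the other 8 libraries, beside 1.65%. Cela1 averaged 19172 ± 10975 RPKM (SD, n = 2) under PD-1 antibody and 40.4 ± 8.51 RPKM (SD, n = 2) in PBS. On the log2(RPKM + 0.5) scale its fold change was 8.76 with a standard error of 1.86 and a limma adjusted p of 0.329. Rnase1 averaged 6800 ± 4307 RPKM and 0.778 ± 0.176 RPKM in the same groups, a log2 fold change of 12.22 with a standard error of 3.45 and a limma adjusted p of 0.492. Zg16 had a log2 fold change of 7.38 (standard error 1.45, limma adjusted p = 0.266) and Rbpjl of 4.67 (standard error 0.75, limma adjusted p = 0.172). None of the 31 passed the adjusted threshold of 0.05 in limma's fit of all 10 libraries, nor did any of the 19368 genes tested (0%). At an unadjusted limma p under 0.05, 31 of 31 members were counted, all of them higher, beside 8.65% of all genes in either direction and 1.4% in the higher direction. Ptf1a passed the filter on low values only through the antibody libraries, at 2.50 and 1.01 RPKM. Its direction in these counts was therefore fixed by the filter. The median log2 fold change of the members was 9.41, or 9.75 with the 3 genes at 0 reads in both PBS libraries set to their bound, beside -0.17 over all genes tested.

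For the 3 genes with 0 reads in PBS a lower bound can be given against 3 reads over the PBS group. Reg1 averaged 468 ± 303 RPKM under PD-1 antibody (SD, n = 2), at least 8440-fold higher. Cuzd1 averaged 19.8 ± 11.7 RPKM there, at least 889-fold higher, and Ptf1a 1.76 ± 1.06 RPKM, at least 52.8-fold higher.

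The call for the antibody depended on which libraries set the spread. With limma fitted to the antibody and PBS libraries alone, 29 of the 31 members passed an adjusted p under 0.05, beside 0.341% of all genes. Without combination replicate 1 alone, 8 passed, beside 0.203% of all genes. A further fit left out the 3 libraries rich in muscle RNA, combination replicate 1 and CDK4/6i replicates 1 and 2. These are also the treated libraries without abundant pancreas RNA, so leaving them out reduces the members' spread within groups by construction. It also leaves CDK4/6i replicate 3 alone in its group, so the member calls of that fit are not given. The fold changes of Cela1, Try4 and Pnlip were the same in these fits, since they rest on the same 4 libraries. Combination replicate 1 carried no pancreas RNA beyond the low level while its 2 companions did, and CDK4/6i replicate 3 carried it while its companions did not. Without CDK4/6i replicate 3, 0 members passed.

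The combination lay between the antibody and PBS. Against PBS, all 31 members had a positive log2 fold change, with a median of 4.31 (4.42 with the same bounds) beside -0.048 over all genes, and 0 passed the adjusted threshold (0% of all genes). Klk1 alone had an unadjusted limma p under 0.05, beside 3.54% of all genes, with 0.753, 81.1 and 243.3 RPKM in the combination and 0.222 and 0.107 RPKM in PBS. All 3 combination libraries were above both PBS libraries in 5 members, Ctrc, Reg1, Zg16, Cuzd1 and Klk1, beside 4.45% of all genes. In combination replicate 1 this rested on 2 reads on Reg1 and 4 on Cuzd1, with 0 in PBS. Ctrc was at 0.710 RPKM there, beside 0.669 and 0.687 RPKM in PBS, and Zg16 at 4.22 RPKM beside 3.96 and 3.35 RPKM. Differences this small may be counting error, so nothing is read from the count. The median log2 fold change against PBS was 6.61 without combination replicate 1 and 2.84 without combination replicate 3. Against PD-1 antibody alone, every member was lower in all 3 combination libraries, beside 5.1% of all genes, with a median log2 fold change of -4.99 beside 0.12 over all genes, and of -2.82 without combination replicate 1. In that comparison 20 members had an unadjusted limma p under 0.05, beside 5.55% of all genes, and 0 passed after adjustment (0% of all genes). Ptf1a is among the 20, although the filter fixed its direction here too. Combination replicate 3, the richer of the 2 pancreas-carrying combination libraries, was itself below antibody replicate 2 in all 31 members.

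In CDK4/6i alone the members were abundant in replicate 3 and near the PBS level in replicates 1 and 2. Of the 31 members, 29 had a positive log2 fold change, with a median of 1.31 (1.54 over 30 members with the bounds, leaving out Ptf1a) beside -0.20 over all genes. None had an unadjusted limma p under 0.05, beside 5.35% of all genes, and 0 passed after adjustment (0% of all genes). Without CDK4/6i replicate 3, 14 of the 31 log2 fold changes were positive, and without the 3 muscle-rich libraries, which leaves that replicate alone in its group, the median was 4.02. All 3 CDK4/6i libraries were above both PBS libraries in Cela1, Try5 and Klk1, beside 1.71% of all genes. In CDK4/6i replicates 1 and 2 this rested on 6 and 4 reads on Try5, beside 2 and 2 in PBS. Klk1 had 8 and 12 reads there, beside 6 and 4 in PBS, so nothing is read from this count. The combination against CDK4/6i gave a median log2 fold change of 2.97 beside 0.15 over all genes, with 0 members at an unadjusted limma p under 0.05, beside 8.03% of all genes, and 0 after adjustment (0%). That median was 5.35 without combination replicate 1, 1.33 without combination replicate 3 and 4.48 without CDK4/6i replicate 3.

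Averaged over both inhibitor states, antibody-treated against antibody-free libraries gave a median log2 fold change of 6.30 beside -0.013 over all genes. All 31 members were higher at an unadjusted limma p under 0.05, beside 10.2% of all genes in either direction and 4.3% in the higher direction, and 0 passed after adjustment (0%), the lowest adjusted p being 0.207. Without the 3 libraries rich in muscle RNA 18 members passed, beside 0.392% of all genes, and without combination replicate 1 alone 25 passed, beside 0.562%. Whether the antibody effect differed with the inhibitor was tested by the interaction. All 31 members had a negative interaction, with a median of -6.47 on the log2 scale beside 0.33 over all genes; 12 had an unadjusted limma p under 0.05, beside 5.62% of all genes, and 0 passed after adjustment (0%, lowest adjusted p 0.777). Without combination replicate 1 the median interaction was -4.28. Ptf1a, which passed the filter on low values only through PD-1 antibody libraries, is among the 31 and among the 12. These comparisons share libraries with each other and are not independent of those above.

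Other acinar genes showed the same libraries. From a list of acinar genes that are no members, 33 were tested, 32 had a positive log2 fold change under PD-1 antibody against PBS, 29 were higher at an unadjusted limma p under 0.05, beside 8.65% of all genes in either direction and 1.4% in the higher direction. None passed after adjustment (0% of all genes), and the median log2 fold change was 5.23 beside -0.17 over all genes. As for Ptf1a, the filter fixed the direction of any listed gene that passed it only through the antibody libraries. How many did so was not counted. In 23 of the 33 the 5 abundant libraries were above the other 5, beside 3.07% of all genes. Over the 10 libraries and 17773 genes with at least 1 RPKM in their highest library, the genes most like the members' mean level included Amy2b (Pearson r = 0.999), Amy2a1, Amy2a4, Serpini2, Dmbt1, Amy2a2, Pdia2, Amy2a5 and Amy2a3 (0.994). These r values describe libraries that fall into a rich and a poor set. Amy2a5, a pancreatic amylase, had 353.7 and 1399 RPKM in combination replicates 2 and 3, 9417 and 4047 RPKM under PD-1 antibody, 153.3 RPKM in CDK4/6i replicate 3, and at most 1.08 RPKM elsewhere. The 6 Amy2 genes are close copies whose separate values are uncertain, and their sum was 9.74% of the reads in antibody replicate 1 and 4.10% in antibody replicate 2. The 31 members and 35 other acinar genes together took 22.6% and 9.34% of the reads under PD-1 antibody and 0.0409% and 0.0538% in PBS.

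Islet hormone genes were at or below 4.71 RPKM in every library. Among the islet hormones, Gcg (glucagon) had 4.71 and 1.06 RPKM under PD-1 antibody and at most 0.812 RPKM elsewhere, Ins2 (insulin) 1.45 and 0.134 RPKM under PD-1 antibody and at most 0.336 RPKM elsewhere, and Sst (somatostatin) 0.689 and 0.195 RPKM under PD-1 antibody and 0 RPKM elsewhere. The filter on low values was passed by 5 of the 18 islet genes present, and in none of these 5 were the abundant libraries all above the others. The salivary gland also makes an amylase and Klk1. Of its list 9 genes were tested, 8 of them had a positive log2 fold change under PD-1 antibody against PBS (median 2.02, beside -0.17 over all genes), 7 had an unadjusted limma p under 0.05, beside 8.65% of all genes, and 0 passed after adjustment (0%). The 7 were Egf and the kallikreins Klk1b3, Klk1b4, Klk1b5, Klk1b11, Klk1b24 and Klk1b27. Any of them that passed the filter only through the antibody libraries had its direction fixed by it, which was not counted either. The salivary secretory genes Prol1, Mucl2, Dcpp1, Smgc and Muc19 did not exceed 0.094 RPKM in any library and did not pass the filter on low values. The part of salivary tissue in these values was not tested. The kallikreins Klk1b5 and Klk1b11 had 30.2 and 9.19 RPKM in antibody replicate 1, 21.3 and 7.38 RPKM in antibody replicate 2, and at most 0.157 RPKM in the 5 poorer libraries, and Klk1 shares 28.4% of its 50-base stretches with genes of that family.

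Immune genes moved with the pancreas genes across libraries. Of 11 immune lists, 5 had their 5 highest mean levels in exactly the 5 libraries with abundant pancreas RNA, namely the T cell, cytotoxic, B cell, lymph node and myeloid lists. The T cell list averaged 1.26, 3.08 and 3.24 on the log2(RPKM + 0.5) scale in the combination, 2.73 and 2.18 under PD-1 antibody, 0.50, 0.96 and 1.76 in CDK4/6i, and 1.23 and 1.63 in PBS. CDK4/6i replicate 3 and PBS replicate 2 were close to each other in that list. The plasma cell, neutrophil, mast cell, MHC class II, interferon and eosinophil lists overlapped between the 2 sets of libraries. Of the 134 immune genes tested, 29 (21.6%) were higher in each of the 5 abundant libraries than in each of the other 5, beside 3.07% of all genes. They included 11 of 18 T cell genes, 6 of 13 cytotoxic genes, 4 of 13 B cell genes, 4 of 11 lymph node genes and 1 of 14 myeloid genes.

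**Figure D4:**
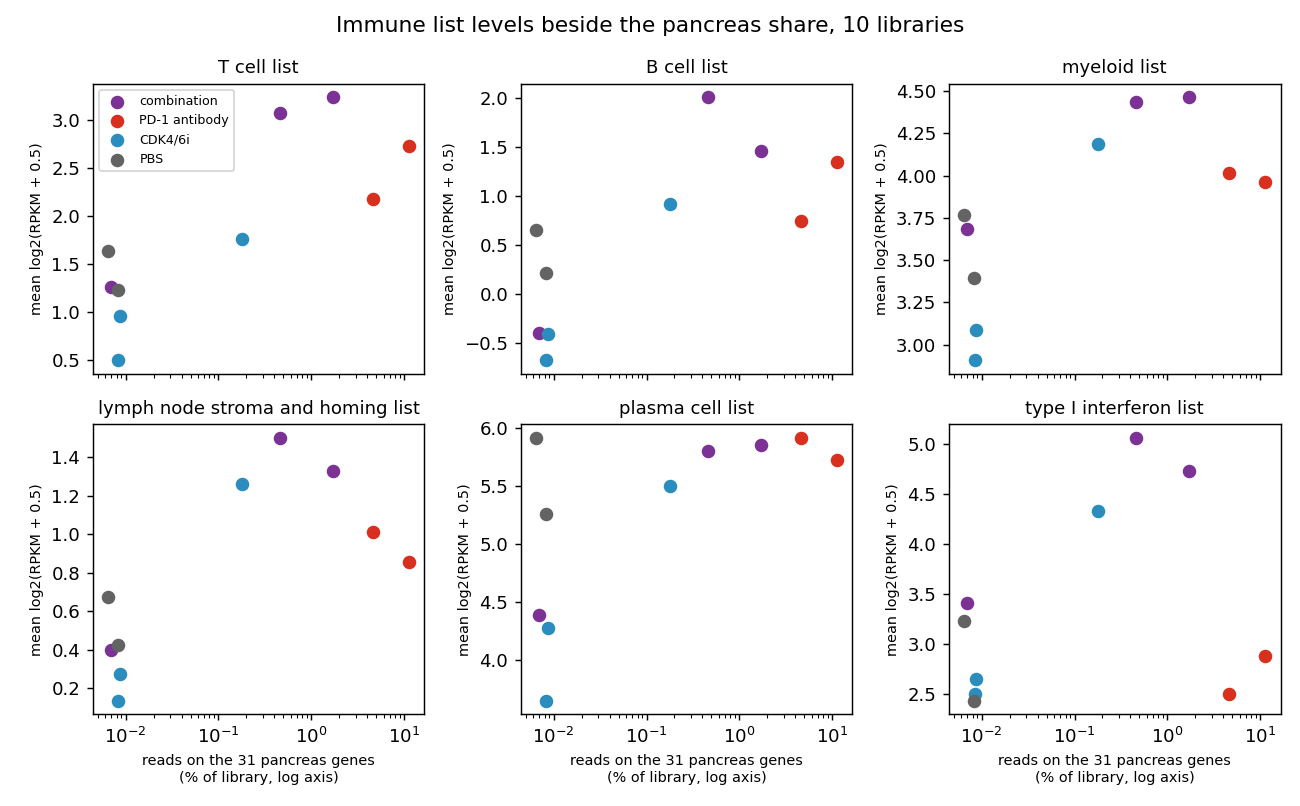
Mean log2(RPKM + 0.5) of 6 immune lists (vertical axes) beside the share of reads on the 31 pancreas genes (horizontal, % of library, log axis); each point is 1 of the 10 libraries, coloured by group. In the T cell, B cell, myeloid and lymph node panels the 5 libraries on the right lie above the 5 on the left, while in the plasma cell and interferon panels they overlap.

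The immune genes most like the members over the 10 libraries included Klrd1, Cd8b1, Cd3d, Ccl5, Cd5, Cd3e, Cd2, Ighg3 and Cd6, in falling order of Pearson r, which was 0.879 for Klrd1. Klrd1, a receptor of natural killer and CD8 T cells, had 0.501, 1.81 and 4.41 RPKM in the combination, 2.53 and 1.66 RPKM under PD-1 antibody, 0.491, 0.372 and 0.705 RPKM in CDK4/6i, and 0.497 and 0.450 RPKM in PBS. Cd8b1, a CD8 chain of cytotoxic T cells, had 1.85, 8.77 and 13.1 RPKM in the combination, 8.58 and 4.24 RPKM under PD-1 antibody, 0.599, 0.803 and 2.18 RPKM in CDK4/6i, and 1.23 and 1.36 RPKM in PBS. Within the 5 abundant libraries the order was not the same: the pancreas share was highest in antibody replicate 1, while the T cell list was highest in combination replicate 3 and the B cell list in combination replicate 2. Members and other acinar genes took 22.6% of the reads of antibody replicate 1, beside 0.965% and 3.41% in combination replicates 2 and 3. A larger acinar share lowers the RPKM of all other genes of a library, and these levels were not corrected for it. The muscle list, with 0.00153% to 0.706% of the reads in the 5 abundant libraries and 0.674% to 10.41% in the other 5, also moved across them. All abundant libraries but CDK4/6i replicate 3 were antibody-treated, and of the other 5 only combination replicate 1 was. Pancreas RNA and antibody treatment can therefore hardly be told apart here. In antibody-treated against antibody-free libraries all 18 T cell genes tested were higher, 15 at an unadjusted limma p under 0.05. Beside them stood 10.2% of all genes in either direction, and 0 passed after adjustment (0%). The part of pancreas tissue, muscle or treatment in the immune levels was not tested.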

How the data were processed

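Per the labels' protocols, total RNA of tumour tissue was made into stranded mRNA libraries and sequenced in read pairs; 2 library kits are named without saying which served which sample. The authors deposited 1 table of RPKM values for 32830 genes in 10 libraries, on GRCm38 (mm10) per the submitters' processing notes; the sources used here do not name an aligner, a counter or filters. Every sample column was matched to a sample (0 left over). Multiplied by gene length, 100% of the values came out as whole numbers of reads (tolerance 1e-06), which gave reads and totals. Reads carry no molecular identifiers, so intervals cover counting error only.

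limma 3.58.1 (R 4.3.3) was fitted to log2(RPKM + 0.5) of the 19368 genes at 0.5 RPKM or more in at least 2 libraries, which all 31 members passed, as 4 group means over 10 libraries with trend, robust moderation and Benjamini-Hochberg adjustment at 0.05. Ptf1a passed that filter only through the PD-1 antibody libraries. Fold changes on this scale are understated for low genes. Simulated data were used to test the fit. The members, lists, tests and naming rule (all members, up to 4 genes of a list, the 10 genes most like the members' mean, and 10 immune genes) were chosen with earlier results of these data known. Some genes the rule names are not reported here. A minimum of 1000 member reads for describing the mixture was passed by all 10 libraries through Cela1 alone, so it was applied to the other 30 members. That step, the muscle-rich fit (muscle list over 5% of reads), and the fixed promoter spacing were chosen after seeing the data. Alternatives were a pseudocount of 0.1 or 1, a filter at 1 RPKM or none, scaling by median ratios, no trend, the compared groups alone, voom on the recovered reads, a replicate block and leaving out each library.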

Additional observations from a re-analysis of the deposited data

How the results depend on the processing

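No member changed side of the threshold except in the antibody comparisons. For PD-1 antibody against PBS the 0 members called became 29 with the compared groups alone, 22 without the 3 muscle-rich libraries and 0 to 8 with 1 library left out (8 without combination replicate 1). For antibody-treated against antibody-free libraries they became 18 without the muscle-rich libraries and 0 to 25 with 1 library left out (25 without combination replicate 1). The cause was not tested.

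Over all genes, no filter gave 23 calls (antibody against PBS), 15 (combination against antibody), 8 (CDK4/6i against PBS) and 7 (combination against PBS). A pseudocount of 1 gave 1 call in each of the antibody against PBS, the combination against the antibody and the averaged antibody effect. Without trend there were 2 calls for the antibody against PBS and 2 for the combination against the antibody, and with the compared groups alone 66 for the antibody against PBS. Without the muscle-rich libraries there were 26, 51, 1, 1, 5, 74 and 1 calls for CDK4/6i against PBS, antibody against PBS, combination against PBS, combination against antibody, combination against CDK4/6i, averaged antibody effect and interaction. With 1 library left out the calls ranged, for the first 6 of these, from 0 to 118 (without PBS replicate 1), 0 to 39 (without combination replicate 1), 0 to 90 (without PBS replicate 1), 0 to 5 (without antibody replicate 1), 0 to 1 (without CDK4/6i replicate 3) and 0 to 108 (without combination replicate 1). The compared groups alone were not run for the averaged effect and the interaction, which use all groups.

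As a replicate block, the replicate number gave 1 call for the antibody against PBS in place of 0 and changed no member call; the members' median for CDK4/6i against PBS was then -0.17 in place of 1.31. Same-numbered libraries of the combination and CDK4/6i had correlations of their deviations over genes of 0.62, -0.45 and 0.49 for replicates 1, 2 and 3. Since not every pair was above 0.1, the numbers were not taken to pair the samples, and not every library correlated best with its own number.

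As a share of summed RPKM the members took 0.0135%, 1.001% and 3.70% in the combination, 22.96% and 9.88% under PD-1 antibody, 0.0155%, 0.0168% and 0.428% in CDK4/6i, and 0.0162% and 0.0130% in PBS. The protease share in combination replicates 2 and 3, antibody replicates 1 and 2 and CDK4/6i replicate 3 was 60.2%, 63.2%, 65.4%, 65.8% and 66.0% of member reads, 48.6%, 51.4%, 55.7%, 56.3% and 53.4% of RPKM without the trypsin genes, and 55.1%, 58.1%, 57.6%, 57.4% and 62.0% without Cela1. Median-ratio scaling put the median of all genes for the antibody against PBS at -0.014 in place of -0.17 and changed the direction of no member there. The designs have 2 or 3 libraries a group, and at these depths a member at 0 reads may lie below detection.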

Other observations

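Reg3 genes, relatives of Reg1 and Reg2 that pancreas and gut make under inflammation, differed in how far they lay from the common ratio. Relative to antibody replicate 1, antibody replicate 2 held 208% of Reg3a and 91.3% of Reg3b, beside 37.7% of Reg3d, 25.6% of Reg3g and a median of 40.4% over the 31 members. Reg3a had 0.793 and 1.07 RPKM in combination replicates 2 and 3, 5.46 and 11.3 RPKM under PD-1 antibody, and 0.0842 RPKM in CDK4/6i replicate 3, and Reg3b 10.1, 11.9, 100.7, 91.9 and 1.03 RPKM in the same order of libraries. Both were at 0 RPKM in the other 5 libraries. In combination replicate 3 the picture was not the same, with Reg3a at 19.6%, Reg3b at 11.8%, Reg3d at 11.2% and Reg3g at 3.57%, beside a median of 15.7% over the members. Reg2, Reg3a and Reg3b lay above the common ratio in antibody replicate 2, Reg3d near it and Reg3g below it, and these genes were named after their values were seen. Spink1, the trypsin inhibitor of the acinar cell, held 50.9% there, and Tff2, a trefoil peptide of pancreas and stomach, 42.1%.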
